A study of Sus scrofa with 96 samples.

Results

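The transcripts described here were the 150 that differed most from one healthy-side cartilage to the next, out of 46295 pig transcripts quantified in the series. Levels were CPM, the estimated counts of a transcript scaled to the total of its library. The members were chosen on measured values, in 12 cartilage libraries from unoperated contralateral knees (CON). A transcript had to be over 300 bases long, to average at least 5 CPM in CON cartilage, to differ between the mean levels of CON cartilage and CON synovium by no more than 4 on the log2 scale, to differ between the median levels of operated and CON cartilage by no more than 0.5 on that scale, and to have a larger standard deviation (SD) of log2(CPM + 1) in CON cartilage than in CON synovium. After these steps 7378 transcripts were left, and the 150 with the highest SD in CON cartilage were kept. Thus the spread in CON cartilage, the ratio between the CON tissues and the ratio between operated and CON cartilage are given below as descriptions and were not tested.

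Yucatan minipigs had one knee operated and were followed for 52 weeks. The operated knees had an anterior cruciate ligament (ACL) transection that was left untreated (ACLT), an ACL reconstruction with a bone-patellar tendon-bone allograft (RECON), or a bridge-enhanced ACL repair in which an extracellular matrix scaffold loaded with blood held the sutured ligament (REPAIR). The CON knees were the opposite knees of 12 of the operated animals, so that CON is neither an independent set of animals nor a set of pigs without surgery. RNA of articular cartilage and of synovium was sequenced from 12 knees per group, and knee ACLT 12 was left out of the comparisons, which leaves 35 treated and 12 CON knees in each tissue.

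Articular cartilage holds chondrocytes spread thinly through a dense matrix of collagen and proteoglycan and yields little RNA, whereas synovium is a cellular lining tissue with fibroblast-like cells, macrophages and vessels. Salmon assigns each read to the transcripts it could have come from, and a read that fits several transcripts of a gene is divided between them by an estimation procedure. The level of a single transcript therefore depends on the expression of its gene, on splicing, and on how the reads are shared among alike transcripts. The files name Ensembl transcripts and do not pair them with genes, so members are given by transcript identifier, and neither tissue markers nor gene functions could be examined.

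Libraries held between 7483049 and 21937198 estimated counts, with a median of 14652263. The CON cartilage libraries held between 11491895 and 18365836. The limit that a count of 0 allows was taken as 3 counts, which stood for 0.163 to 0.261 CPM in those 12 libraries and covers counting error only. No pair of libraries within a group was alike within sampling noise (lowest chi-square per degree of freedom 24).

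In 144 of the 150 transcripts, 96%, at least 1 CON cartilage had an estimated count of exactly 0, compared with 5.86% of the 14570 transcripts of over 300 bases and at least 5 CPM. All 144 were above 10 CPM in another CON cartilage. The members were chosen for their spread in these libraries, so nothing is read from this difference. The median of a member's counts above 0 was 211 for the typical member and ranged from 48.0 to 12704 among members, although single values lay near the limit of detection, such as the 0.15 CPM of ENSSSCT00000016351.5. There were 24 members at 0 in 1 CON cartilage, 35 in 2, 36 in 3 and 23 in 4, and the rest of the 144 were at 0 in 5 to 10 of them. The only 6 members above 0 in every CON cartilage were ENSSSCT00000073214.2, ENSSSCT00000016699.5, ENSSSCT00000016351.5, ENSSSCT00000050293.2, ENSSSCT00000088046.2 and ENSSSCT00000055832.3.

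The zeros were spread over the knees. Between 28 and 51 of the members were at 0 in each CON cartilage, with a median of 39, and the extremes were CON 12 and CON 2. The highest value of a member was found most often in CON 11, for 28 members, and in CON 8, for 18. The operated cartilages showed the same kind of values: 133 members, 88.7%, were at 0 in at least 1 of the 35, compared with 9.45% of all. Per library, 23 to 38 members were at 0 in ACLT, 24 to 43 in RECON and 20 to 42 in REPAIR cartilage.

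At the median the members were longer and less abundant than all 14570 transcripts. Lengths ran from 552 to 17870 bases, with a median of 4650 against 3600 for all 14570. Mean CON cartilage levels ran from 5.00 to 1633 CPM with a median of 10.5, against 15.7 for all. The SD of log2(CPM + 1) in CON cartilage was between 1.45 and 2.9 with a median of 1.75, against a median of 0.32 for all. At the lower end there was no gap: the last members, ENSSSCT00000049861.2, ENSSSCT00000002118.5 and ENSSSCT00000078485.2, had SDs of 1.46, 1.46 and 1.45, and the first transcripts left out, ENSSSCT00000010839.5, ENSSSCT00000046562.3 and ENSSSCT00000055036.3, had 1.45, 1.44 and 1.44.

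The highest SD, 2.9, was that of ENSSSCT00000073214.2, which was graded. Its levels in CON 1 to CON 12 cartilage were 5217, 9.73, 266.6, 672.5, 1319, 52.3, 598.8, 5.38, 64.7, 1015, 290.1 and 772.3 CPM. CON 1 stood highest and CON 8 and CON 2 lowest, with the other knees spread between them. ENSSSCT00000014867.5 (SD 2.47) was also graded, at 206.8 CPM in CON 1, a median of 8.78 CPM, and 0 in CON 2 and CON 8.

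ENSSSCT00000088087.1 (SD 2.75) had levels of 0, 0, 0, 48.9, 59.7, 24, 19.5, 53.6, 53.1, 0, 0 and 25.8 CPM in CON 1 to CON 12. It was thus absent from 5 knees and between 19.5 and 59.7 CPM in the other 7, with nothing between. ENSSSCT00000014769.4 (SD 2.52) had 62.2, 54.4, 45.9, 0, 3.52, 32.6, 34.2, 0, 0, 53.4, 53.7 and 24.9 CPM. It was at its highest in knees where ENSSSCT00000088087.1 was at 0, and at 0 in 3 of the 4 knees where that transcript was highest.

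The remaining members of the first 10 showed separate patterns of the same kind. ENSSSCT00000027972.4 (SD 2.59) was at 0 in CON 1, CON 8 and CON 11 and at 11.2 to 89.3 CPM elsewhere. ENSSSCT00000044269.3 (SD 2.44) was at 0 in CON 2 and CON 6 only and at 39.1 to 114.4 CPM in the other 10 knees. ENSSSCT00000017723.5 (SD 2.41) was at 0 in CON 4, CON 6 and CON 11, with a highest level of 52.7 CPM. Different knees were thus at 0 for different members. ENSSSCT00000106582.1 (SD 2.40) and ENSSSCT00000077718.2 (SD 2.35) were at 0 in 4 and 3 knees, with highest levels of 51.5 and 62.5 CPM. ENSSSCT00000058319.3 (SD 2.36) had the opposite balance, with 7 knees at 0 and 5 between 13.7 and 55.2 CPM.

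**Figure D1:**
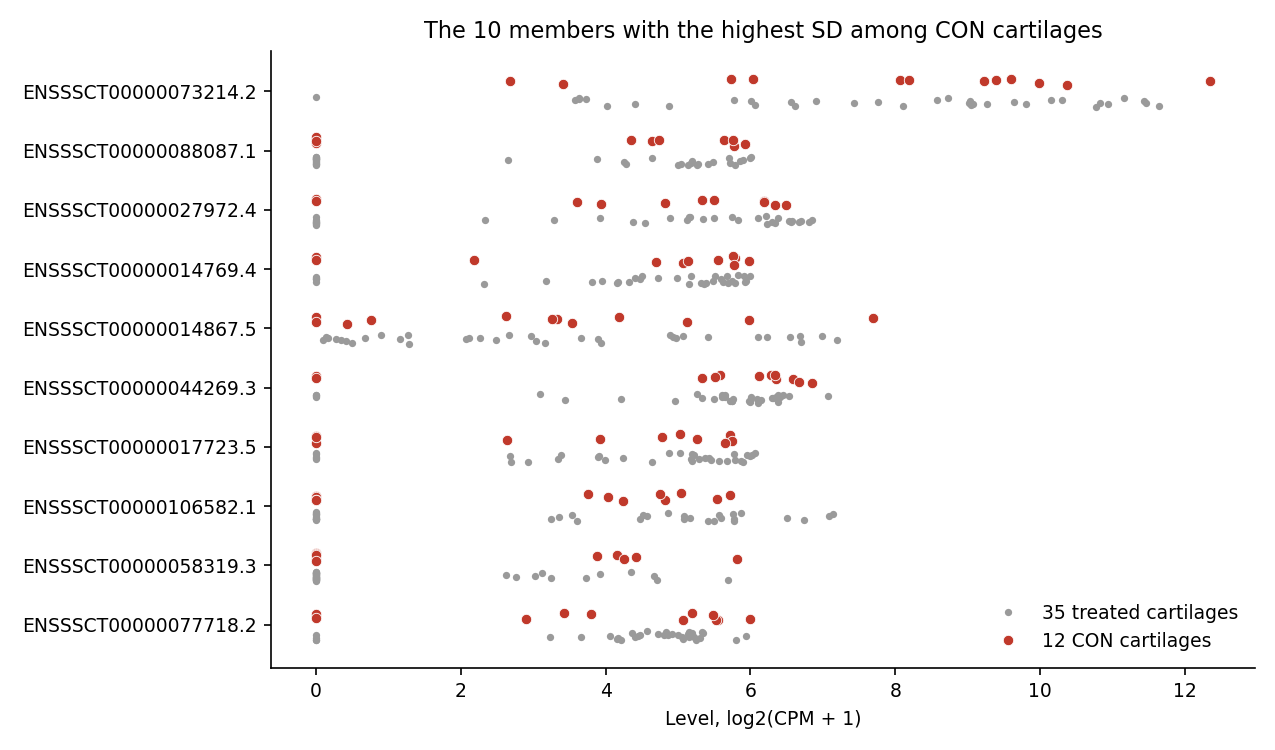
Level, as log2(CPM + 1), of the 10 transcripts with the highest SD, with one red point for each of the 12 CON cartilages and one grey point for each of the 35 treated cartilages. In 9 of the 10 at least 2 CON cartilages sit at exactly 0 apart from the rest, while ENSSSCT00000073214.2 is spread evenly from 5.38 to 5217 CPM.

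The spread was not limited to the libraries that chose the members. In cartilage the median SD of log2(CPM + 1) over the members was 1.58 in ACLT, 1.55 in RECON and 1.46 in REPAIR, compared with 1.75 in CON, and over all 14570 transcripts it was 0.32, 0.32, 0.29 and 0.32. In synovium it was 1.22 in CON, 1.41 in ACLT, 1.40 in RECON and 1.19 in REPAIR, against 0.31 to 0.35 for all. The members' median was therefore higher than that of all transcripts in 8 of 8 groups, although in CON cartilage the choice had fixed this. With the interquartile range, which does not follow single extreme libraries, the members' medians were 2.07 in CON cartilage, 1.29 to 1.43 in treated cartilage and 0.92 to 1.22 in synovium, against 0.34 to 0.41 for all, again higher in 8 of 8. For CON cartilage this measure too is tied to the choice. As the rule required a larger SD in CON cartilage than in CON synovium, the order of these 2 groups was fixed by the choice. No more than 6 members were at 0 in all 12 CON synovia and 3 in all 35 treated synovia.

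**Figure D2:**
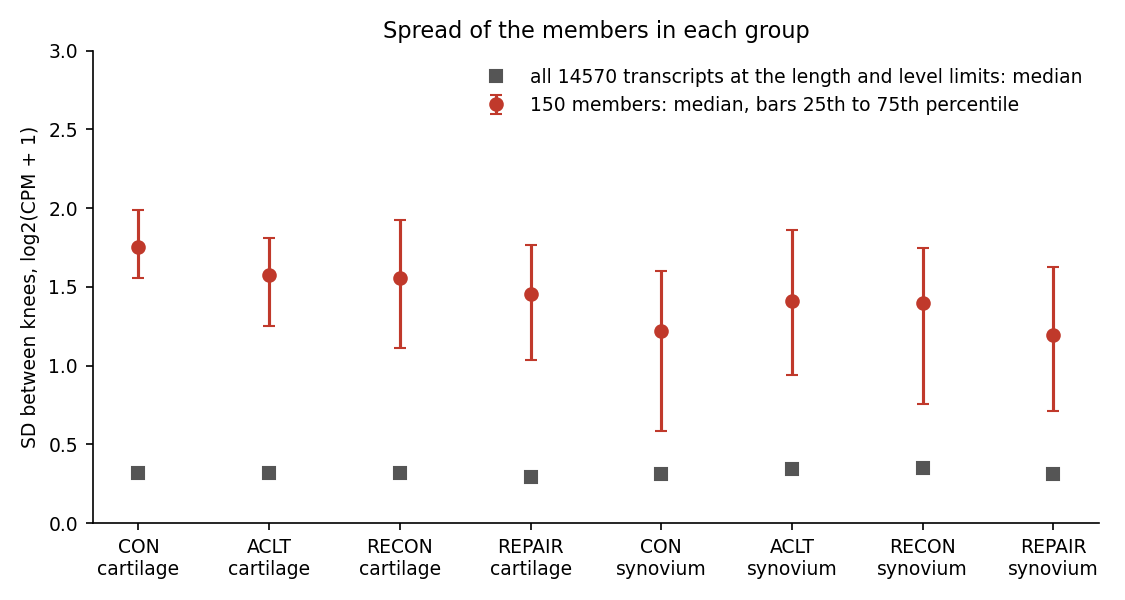
SD of log2(CPM + 1) over the libraries of each tissue and group, with circles and bars for the median and quartiles of the 150 members and squares for the median of all 14570 transcripts over 300 bases with at least 5 CPM in CON cartilage. The members' medians, between 1.19 and 1.75, lie above those of all transcripts, between 0.29 and 0.35, in every group, which the choice fixed in CON cartilage.

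Some members had a counterpart that was high where they were low. To find it, the transcript whose level best offset the member's was sought in the 35 treated cartilages among 22850 transcripts, and the pair was then measured in CON cartilage, where the partner had not been chosen. The measure was the share of a member's squared deviations that was cancelled when the CPM of both were added. More than 50% was cancelled for 29 of the 150 members, 19.3%, compared with 466 of the 14570 transcripts, 3.2%. The members were chosen for large deviations in CON cartilage, by which the share is divided, so nothing is read from this difference. This search was devised after the data had been examined. For the typical member the partner cancelled little, with a median of 2.76%.

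The pairs counted here were picked for the cancelling in CON cartilage, so their values there are descriptions. The median SD in CON cartilage was 1.75 for the member, 1.65 for its partner and 0.25 for the log2 of their sum, which ranged from 0.11 to 1.40. Pearson's r between member and partner CPM over the 12 CON cartilages ranged from -0.98 to -0.71, with a median of -0.90. Partner and member were also of alike length: they were within 5% of each other in 25 of the 29 pairs, but for 11 of the other 121 members, and for 6.42% of all 14570 transcripts. Of the 466 transcripts with more than 50% cancelled, 35.6% had a partner within 5% in length. More than 50% was cancelled in CON synovium too for 17 of the 29 and in treated synovium for 18. In 4 of the 29 the partner was itself a member. Whether the partners are transcripts of the same gene cannot be read from the files.

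The clearest pair joined the members ENSSSCT00000088087.1 and ENSSSCT00000014769.4, of 3205 and 3241 bases. Their sum was 54.1 ± 4.91 CPM (SD, n = 12) and lay between 45.9 and 63.2 CPM in every CON cartilage, although each of them was at 0 in several. The sum cancelled 95.9% of the squared deviations, with r = -0.98. ENSSSCT00000007695.5 and its partner ENSSSCT00000073010.2, both of 1876 bases, added up to 17.7 ± 2.06 CPM (SD, n = 12) and cancelled 94.9%. ENSSSCT00000105000.1 and ENSSSCT00000009254.5, of 6320 and 6395 bases, added up to 10.6 ± 1.32 CPM and cancelled 93.2%. In these pairs a nearly constant total was divided between member and partner. In some knees 1 of them held all of it, and in others both held a part.

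Other pairs kept their balance in some groups only. ENSSSCT00000068656.2 and ENSSSCT00000012279.5, both of 6061 bases, added up to 97.5 ± 11.8 CPM (SD, n = 12) in CON cartilage, where 89.1% was cancelled. In treated synovium the same sum was more variable than the member alone, by 19.6% of its squared deviations. ENSSSCT00000027972.4 and ENSSSCT00000039815.3, of 5364 and 5382 bases, cancelled 83.8% in CON cartilage. The members ENSSSCT00000041195.3 and ENSSSCT00000049947.3, of 5261 and 4895 bases, cancelled 87.1%.

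**Figure D3:**
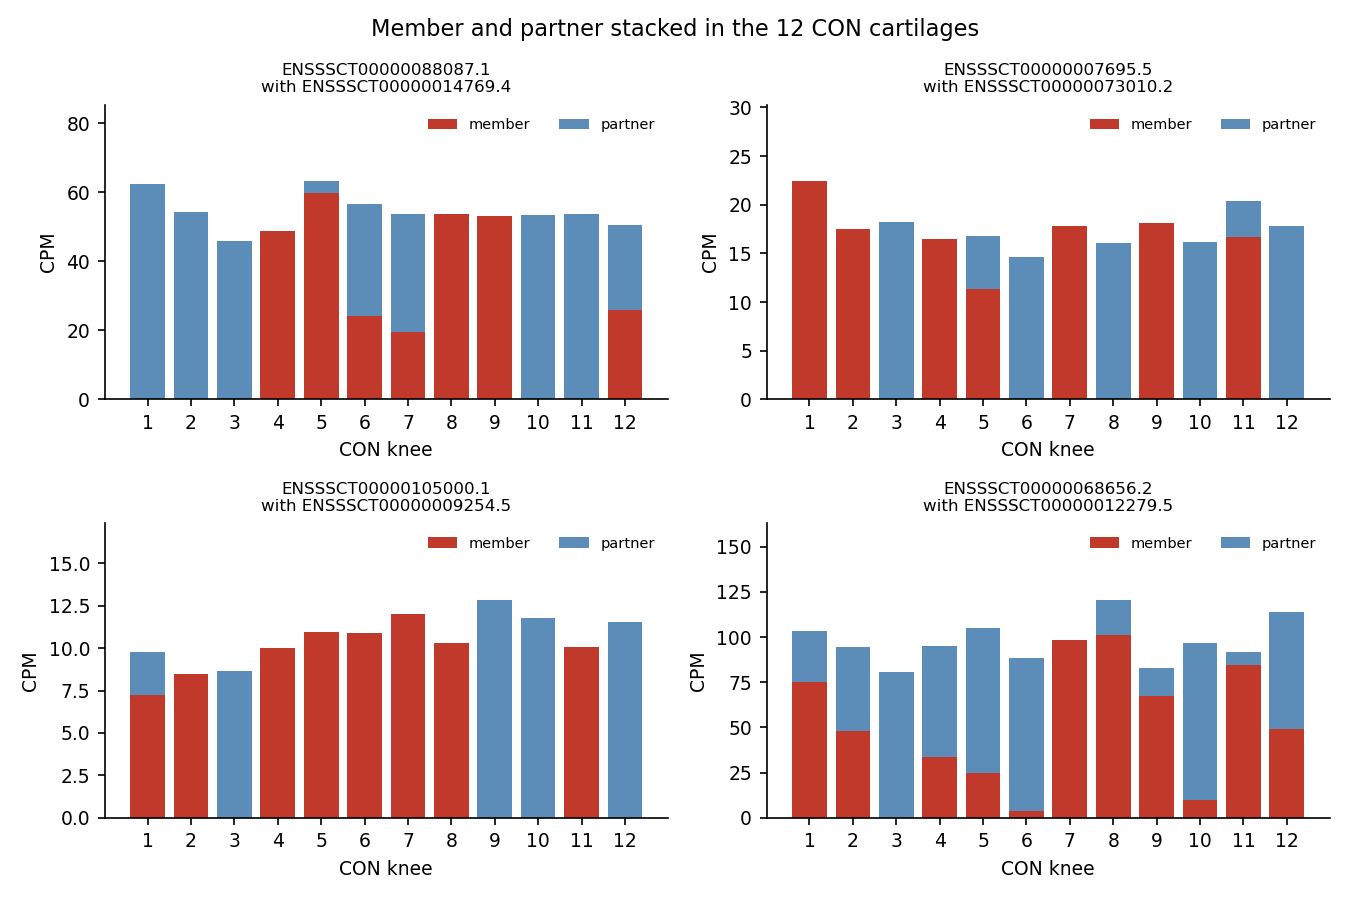
CPM of 4 members (red) and their partners (blue), stacked, in each of the 12 CON cartilages. Each transcript falls to 0 in some knees while the height of the stack, the sum of both, stays level, as for ENSSSCT00000088087.1 and ENSSSCT00000014769.4 between 45.9 and 63.2 CPM.

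The members did not vary as one block. Joined by their Pearson correlation of log2(CPM + 1) over the 12 CON cartilages, they fell into 47 clusters, of which 7 held 5 or more members, with 8, 8, 8, 7, 6, 6 and 5 members. The other 102 members lay in smaller clusters or alone. The mean r within the 7 clusters was 0.63 to 0.71 in CON cartilage, which the clustering itself fixed. Measured in the treated cartilages, which were not used to form them, it was 0.34 in the first cluster and between -0.01 and 0.07 in the other 6, close to the 0.01 over all pairs of members. In synovium it was between -0.08 and 0.09 for all 7 clusters.

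In 5 of the 7 clusters all members were at 0 in the same knee. In the second cluster all 8 members were at 0 in CON 11, in the third all 8 in CON 1, in the fourth all 7 in CON 6, in the next all 6 in CON 2 and in the seventh all 5 in CON 8. Without that knee the mean r fell to 0.51, 0.39, 0.19, 0.19 and 0.52, respectively. In the seventh cluster all 5 members were also at 0 in another knee, and in the second 6 of 8 were. The members closest to the others in the clusters of 7 members and of 6 members whose mean r fell to 0.19 were ENSSSCT00000009658.5 with ENSSSCT00000056797.3 and ENSSSCT00000046625.3 with ENSSSCT00000047194.2. In the first cluster 4 of 8 members were at 0 in CON 8, and without it the mean r was 0.61. In the sixth 3 of 6 were at 0 in CON 1, and without it the mean r was 0.62.

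**Figure D4:**
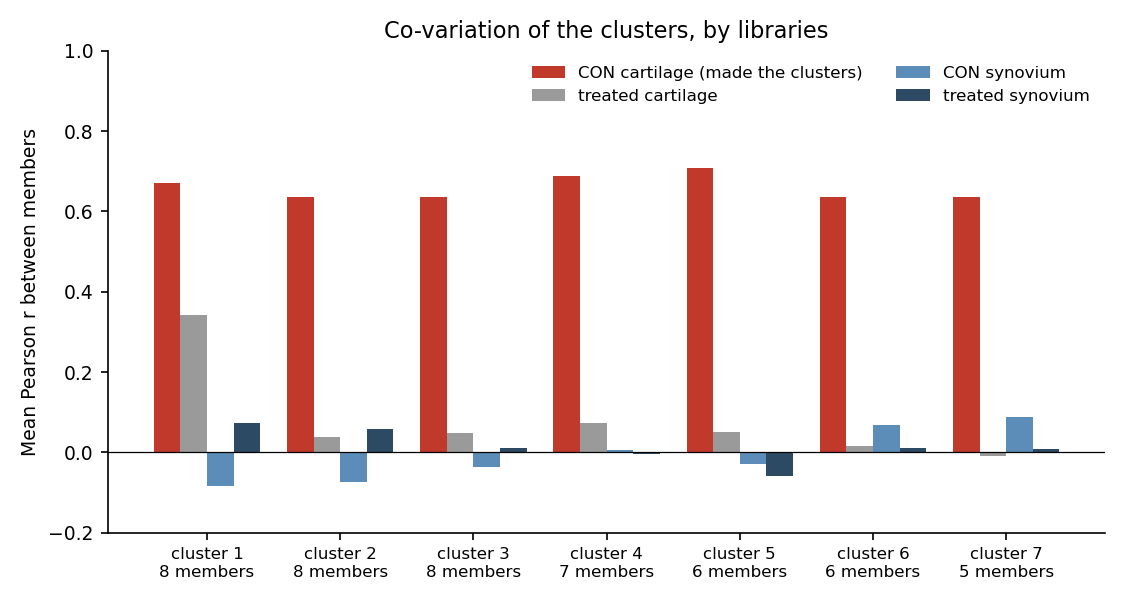
Mean Pearson correlation of log2(CPM + 1) between the members of each of the 7 clusters, with a bar each for CON cartilage, treated cartilage, CON synovium and treated synovium. The first cluster keeps a mean r of 0.34 in treated cartilage, and the other 6 lie between -0.01 and 0.07 there.

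The first cluster held 4 of the 6 members that were never at 0, and its 2 most abundant members moved together in both tissues of CON and treated knees. It was made up of ENSSSCT00000073214.2, ENSSSCT00000014867.5, ENSSSCT00000016699.5, ENSSSCT00000083946.2, ENSSSCT00000051475.3, ENSSSCT00000035607.4, ENSSSCT00000016351.5 and ENSSSCT00000088046.2. ENSSSCT00000016699.5 had the highest mean level of all members, at 1633 CPM in CON cartilage. Per length, as TPM (scaled to transcript length and library), its level was 752.5 ± 1128 (SD, n = 12) and that of ENSSSCT00000073214.2 was 411 ± 676, so that the SD exceeded the mean in both.

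ENSSSCT00000016699.5 lay between 24.6 and 9193 CPM in CON cartilage, with a median of 777, and between 49.6 and 6466 CPM in treated cartilage, with a median of 985. In synovium it was far more even and higher, at 6981 to 25734 CPM in CON (median 9003) and 6513 to 43277 CPM in treated knees (median 15988). ENSSSCT00000073214.2 had medians of 444 CPM in CON and 380 CPM in treated cartilage, and of 3970 CPM in CON and 9463 CPM in treated synovium. Both transcripts were thus at a high level in every synovium, and in cartilage they ranged from far below that level up to it. Their correlation with each other was 0.94 in CON cartilage, 0.94 in treated cartilage, 0.78 in CON synovium and 0.90 in treated synovium.

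Not every transcript of the first cluster shared the high synovial level. ENSSSCT00000016351.5 lay between 0.15 and 75.5 CPM in CON cartilage and at 0.46 CPM or less in CON synovium. ENSSSCT00000088046.2 lay between 0.23 and 56.7 CPM in CON cartilage and was at 0 in 47 of 47 synovia. The correlation of ENSSSCT00000073214.2 with ENSSSCT00000014867.5 was 0.89 in CON and 0.87 in treated cartilage, but -0.62 in CON and -0.22 in treated synovium. These correlations share their libraries and are given as descriptions.

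**Figure D5:**
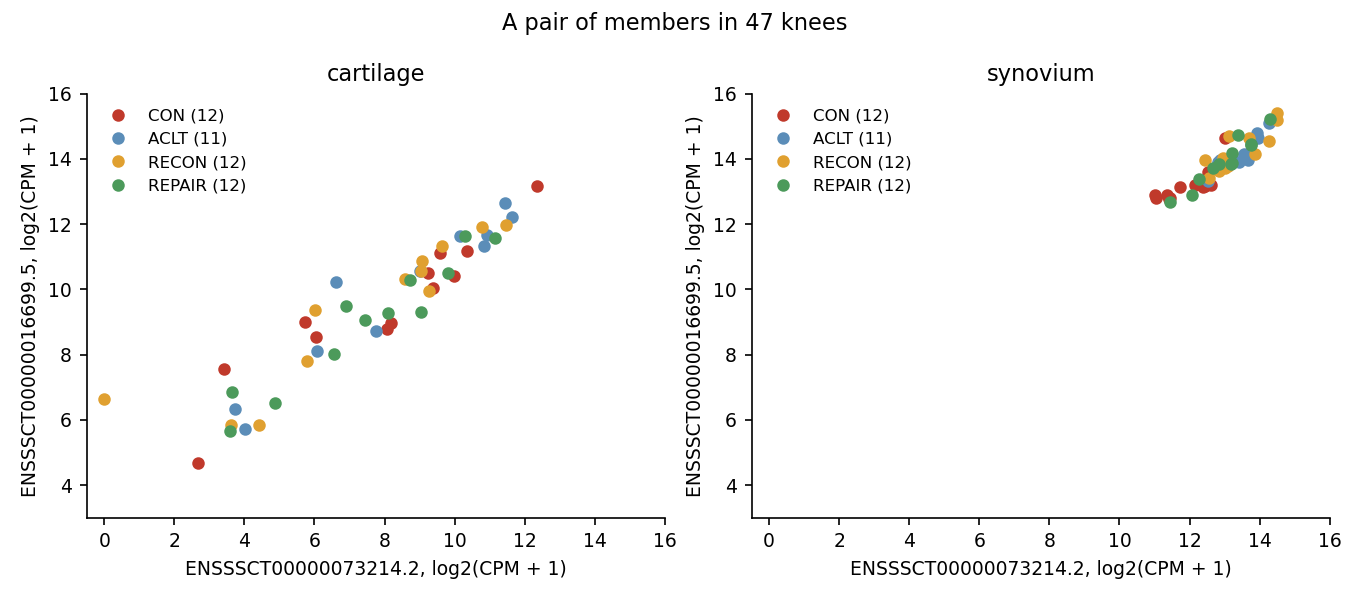
Level of ENSSSCT00000073214.2 against that of ENSSSCT00000016699.5 in every cartilage and synovium compared, as log2(CPM + 1), with one point per library coloured by treatment and the tissues side by side. Cartilages are spread along one line, with r = 0.94 in CON and in treated knees, and synovia gather at its upper end.

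Treated cartilage was compared with treated synovium, a contrast of which the rule used the treated cartilage, held near the CON level, but not the treated synovium. In edgeR (quasi-likelihood F-test, p-values adjusted by Benjamini-Hochberg over 30447 transcripts), 69 of the 150 members, 46.0%, were called, and 65.9% of all tested transcripts. There were 44 higher in cartilage and 25 higher in synovium. The rule also limited the tissue ratio in CON knees, so that the contrast is bounded by the choice, nothing is read from the count and the values below are descriptions. The tissues were also homogenised by different procedures, so that tissue and handling cannot be told apart, and in bulk RNA fewer cells of a type cannot be told apart from less RNA per cell.

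Levels of ENSSSCT00000042231.3 ranged from 35 to 102.5 CPM in treated cartilage (median 62.9) and from 12.2 to 39.5 CPM in treated synovium (median 23.4). The ranges overlapped only slightly, and the transcript was higher in cartilage by 1.88 ± 0.14 (SE) on the log2 scale. ENSSSCT00000016859.5 had a median of 20.4 CPM in treated cartilage and 0 in treated synovium, where 23 of 35 libraries were at 0, and was higher in cartilage by 6.89 ± 0.56 (SE). ENSSSCT00000016699.5 and ENSSSCT00000055832.3 were lower in cartilage, with log2 differences of -3.31 ± 0.37 (SE) and -2.83 ± 0.37 (SE).

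In synovium, whose treated levels the rule did not use, treated knees were compared with CON knees. The rule did use CON synovium, by its mean level and by its SD, which had to be below that in CON cartilage. That side of the contrast was thus bounded by the choice, and nothing is read from the counts of members that follow. The test was passed by 10 of 150 members, or 6.67%, compared with 18.4% of all transcripts tested, with 6 higher and 4 lower in treated knees (edgeR). For ACLT alone 4 members passed (8.93% of all transcripts did), for RECON 9 (17.1%) and for REPAIR 5 (8.04%). With the animal as a block over the 24 knees of the 12 animals that had both, 8 of the 140 members tested passed for treated against CON (8.08% of all did), of which 1 was among the 10. In the same edgeR model each treatment had 4 of these animals. There 0 members passed for ACLT (0% of all), 1 for RECON (0.911% of all) and 0 for REPAIR (0% of all). At an unadjusted p under 0.05 in edgeR there were 9 members for ACLT (13% of all) and 7 for REPAIR (6.24% of all). Pairing and the smaller number of knees cannot be told apart here. In the model without the block the treated groups share their CON knees, and the differences between treatments were not tested. On simulated counts the model without the block called more unchanged transcripts than its threshold allows, as given below. The paper gives a lower mean RNA integrity number and a lower percentage of uniquely mapped reads for operated than for CON synovium. With the integrity number as a covariate, 10 members passed for treated against CON, as did 17.9% of all (edgeR). The part of RNA quality in these differences was not tested further.

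ENSSSCT00000049947.3, which had the smallest adjusted p among the members that rose, was at 0 in 12 of 12 CON synovia. Its SD in CON synovium was thus 0, which met the SD step of the rule. The transcript was above 0 in 3 ACLT, 3 RECON and 4 REPAIR synovia and reached 25.2 CPM there, with 25 of the 35 treated synovia at 0. Against a floor of 3 counts per library, its mean was at least 13.8-fold higher in treated knees (adjusted p = 0.00395, edgeR). This call was lost with limma on log2(CPM + 1), where the adjusted p was 0.205, and the transcript was too low to be tested when synovium was fitted alone. ENSSSCT00000041195.3, the member whose partner it was, made up all of the pair's CPM in CON synovium and 86.9% in treated synovium. The sum of the pair was 28.6 ± 5.26 CPM (SD, n = 12) in CON and 27.0 ± 5.42 CPM (SD, n = 35) in treated knees. The mean sum thus differed between these groups by less than its SD. Whether the rise of ENSSSCT00000049947.3 came at the expense of ENSSSCT00000041195.3 was not tested. ENSSSCT00000016859.5 went the other way, from 0 to 14.0 CPM in CON synovium (median 4.54, with 4 of 12 at 0) to a median of 0 in treated synovium (highest 12.9), a log2 difference of -3.77 ± 0.62 (SE, adjusted p = 3.34e-06, edgeR). With the animal as a block this difference was -4.79 and no longer passed (adjusted p = 0.171, edgeR). The ranges overlapped for both transcripts.

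Different models called different members. The model over 8 groups estimates one spread per transcript from both tissues, and the members were chosen for a large spread in cartilage: the SD of ENSSSCT00000073214.2 was 2.9 in CON cartilage and 0.68 in CON synovium. When synovium was fitted alone, which also changed the filter and the scaling, 9 of the 135 members tested passed, compared with 19% of all, and 3 of the 9 were among the 10. On simulated counts with 200 transcripts changed 2-fold, the model over 8 groups called 139 of them and 45 unchanged transcripts. That of synovium alone called 141 of the 196 changed transcripts it tested and 9 unchanged ones. The share of unchanged transcripts among the calls was thus above the threshold in the model over 8 groups and close to it in that of synovium alone. There were 6 members that passed both with synovium alone and with the animal as a block, 4 of them higher and 2 lower in treated knees.

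Of these 6, the graded transcripts ENSSSCT00000073214.2 and ENSSSCT00000016699.5 are described first. ENSSSCT00000073214.2 had 2077 to 8316 CPM in CON synovium (median 3970) and 2791 to 23213 CPM in treated synovium (median 9463). The ranges overlapped, and the log2 difference was 1.51 ± 0.27 with synovium alone (SE, adjusted p = 8.5e-05, edgeR), 1.41 ± 0.21 with the animal as a block (SE, adjusted p = 0.00511, edgeR) and 1.51 ± 0.65 over 8 groups (SE, adjusted p = 0.099, edgeR). ENSSSCT00000016699.5, which followed it from library to library, was higher by 1.08 ± 0.24 with synovium alone (SE, adjusted p = 0.00109, edgeR) and by 1.14 ± 0.22 with the block (SE, adjusted p = 0.0133, edgeR), and had an adjusted p of 0.131 over 8 groups in edgeR. ENSSSCT00000055832.3, the member called in all 3 edgeR models, had 40.2 to 410.3 CPM in CON synovium (median 103.8) and 79.0 to 987.9 CPM in treated synovium (median 436.0), and was higher by 1.63 ± 0.54 over 8 groups (SE, adjusted p = 0.0218, edgeR). Also higher was ENSSSCT00000031136.4, by 0.85 ± 0.18 with synovium alone (SE, adjusted p = 0.000802, edgeR). Of the members that fell in both of those fits, ENSSSCT00000062090.3 had a log2 difference of -0.62 ± 0.14 with synovium alone (SE, adjusted p = 0.00154, edgeR).

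Among the operated cartilages no difference between treatments was called. For RECON against ACLT, REPAIR against ACLT and REPAIR against RECON, 0 members had an adjusted p under 0.05 in edgeR, as did 0.0657%, 0.0493% and 0.0854% of all 30447 transcripts. At an unadjusted p under 0.05 there were 4, 2 and 3 members, and 4.82%, 5.9% and 7.77% of all transcripts. DESeq2 called 1, 2 and 1 members (0.584%, 0.407% and 0.797% of all), and limma on log2(CPM + 1) called 0, 0 and 0 (0%, 0% and 0.0493% of all). The members' median SD in the treated cartilages was given above as 1.46 to 1.58 on the log2 scale. How large a difference would have to be to pass was not computed.

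Whether a member's level was a property of the animal could be examined in the 12 animals with cartilage of both knees. For each transcript, the CON cartilage level was correlated with that of the operated cartilage, the latter as deviation from its treatment group. The members' median r was 0.10, lower than the 0.23 of all 14570 transcripts. By a two-sided permutation test with Benjamini-Hochberg adjustment 0 of the 150 members passed, against 0.522% of all, and 15 members had an unadjusted p under 0.05, as did 2008 of all. An r of at least 0.5 was found for 19 of the 150 members, compared with 19.8% of all.

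The member with the highest correlation between knees was ENSSSCT00000105064.1, with r = 0.93 (adjusted p = 0.0538, permutation test) and Spearman's rho = 0.69. It was nearly absent in the CON cartilage of 2 animals, at 0.264 and 0 CPM in CON 5 and CON 6, and in the opposite cartilages of the same animals, RECON 7 and RECON 11, at 0.732 and 0 CPM. In the other 10 animals it lay between 7.67 and 26.4 CPM in CON and between 7.55 and 26.4 CPM in operated cartilage. Without the 2 most distant animals r was 0.56, so that the relation rests largely on them. The next highest were ENSSSCT00000078526.2 with r = 0.86, which rests on the 2 animals above 0, ENSSSCT00000039171.3 with 0.80, ENSSSCT00000061804.3 with 0.77 and ENSSSCT00000041356.3 with 0.74 (adjusted p = 0.177, 0.0663, 0.0728 and 0.124, permutation test).

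Cartilage and synovium of one knee were compared in the same way. Over the 35 treated knees 3 of 147 members with values in both tissues passed the two-sided permutation test, compared with 6.59% of all, and the median r was 0.06 for members and 0.18 for all. ENSSSCT00000105064.1 was again the highest, with r = 0.92, rho = 0.80 (adjusted p = 0.00199, permutation test) and r = 0.90 without the 2 most distant knees. It was at 0 in both tissues of RECON 11, and at 0.732 CPM in the cartilage and 0 in the synovium of RECON 7. ENSSSCT00000056464.3 had r = 0.62 (adjusted p = 0.00481, permutation test). ENSSSCT00000078526.2 had r = 0.53 (adjusted p = 0.0389, permutation test) but rho = 0.20. Over the 12 CON knees 0 of 144 members and 0% of 14535 transcripts passed, and 4 members had an unadjusted p under 0.05, as did 1089 of all.

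The number of members at 0 was set against measures of the libraries in the 35 treated cartilages, as deviations from the group means. Libraries with more counts had fewer members at 0, with r = -0.37 (p = 0.0286, permutation test; rho = -0.41; r = -0.36 without the 2 most distant libraries). This did not pass the adjustment over the 6 relations computed, with an adjusted p of 0.172 in the permutation test. The other 5 relations, among them those with the RNA integrity number and the RNA concentration, had unadjusted permutation p-values above 0.05 as well as adjusted ones. The part of these library measures in the members' zeros was not tested further.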

How the data were processed

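The authors quantified paired-end reads per transcript with Salmon 1.8.0 after FastQC 0.11.9 and MultiQC 1.12, and worked in R 4.2.1 with DESeq2, with Sscrofa11.1 named as the build in the submitters' processing notes. The deposited files give estimated counts and TPM for 46295 transcripts in each of 96 libraries (7483049 to 21937198 estimated counts). The depth limits a count of 0 in CON cartilage to 0.163 to 0.261 CPM. Both libraries of knee ACLT 12, which is not among the libraries that the study lists, were left out of the comparisons, leaving 94.

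CPM was computed from the sum of estimated counts and put on the scale log2(CPM + 1). Estimated counts were rounded to whole numbers and tested with edgeR 4.0.16 (quasi-likelihood test, TMM, filterByExpr with a minimum count of 10, R 4.3.3) in one model with 8 groups of tissue and treatment, with Benjamini-Hochberg adjustment over all 30447 transcripts kept and a threshold of 0.05. Correlations used two-sided permutation tests with 100000 resamples in scipy 1.17.1 and numpy 2.4.6. The members and lists were chosen with earlier results of these data known. The search for partners, the count of members at 0, the level of clusters under other scalings and the use of limma 3.58.1 were added after the data had been examined. The scripts were tested on simulated data. DESeq2 1.42.0 was run as an alternative, together with other scalings, filters, blocks and a covariate. The study's adjustment for unwanted variation was not applied.

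The transcripts planned to be named were the 10 with the highest SD, 3 on each side of the lowest SD kept, up to 2 in each direction per test, the 5 with the highest correlation between knees, the 2 most central of each cluster and the most abundant. Of those from the tests and the clusters only a part is named above. The first of the partner pairs, the members never at 0, the transcripts of the first cluster and those called by several synovium models were picked after their values were seen. The gene lists and tissue markers planned could not be measured, because the files do not pair transcripts with genes.

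Cartilage and synovium share the knee number within a treatment, and 12 animals gave a CON and an operated knee, as the study's own list of animals states. Deviations from the group means in cartilage and synovium of one knee correlated with a mean r of 0.08 over 47 knees (-0.07 to 0.22). Those of the knees of one animal correlated with a mean r of 0.17 in cartilage (-0.00 to 0.32) and 0.10 in synovium (0.01 to 0.14).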

Additional observations from a re-analysis of the deposited data

Results flagged for a closer look

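The cartilage of knee ACLT 12, which entered no comparison, held 10 members above their level in every CON cartilage. The other ACLT cartilages held 3 to 17 such members (median 9), the RECON cartilages 4 to 13 (median 8) and the REPAIR cartilages 0 to 14 (median 4). In the same library 44 members were at 0, compared with 23 to 38 in the other ACLT cartilages.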

How the results depend on the processing

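When each CON knee was left out in turn, 104 to 117 of the 150 members were again among the highest, and with TMM scaling or a pseudocount of 0.5 it was 101 and 133. Over treated against CON synovium limma called 5 members in place of 10, but 22.5% of all transcripts in place of 18.4%. For ACLT in synovium DESeq2 called 7 and limma 2 in place of 4, and for REPAIR the groups compared alone gave 3 and limma 0 in place of 5. Of all transcripts, DESeq2 called 11% and limma 12.3% for ACLT in place of 8.93%. For REPAIR the groups compared alone gave 7.92% of all and limma 10.1% in place of 8.04%. DESeq2 called 1 member for RECON against ACLT, 2 for REPAIR against ACLT and 1 for REPAIR against RECON in cartilage, where edgeR called 0. Without subtraction of the treatment mean 1 member passed between the knees of one animal, and leaving out each animal in turn gave 0 to 0 there and 0 to 0 for the tissues of CON knees. Partners sought at a CPM of at least 5 gave 17 members in place of 29, and TMM scaling gave 32. Clusters of 5 or more members numbered 7 with TMM and 9 with a pseudocount of 0.5. Without CON 1 and CON 2, 135 members were at 0 in at least 1 CON cartilage. The causes were not tested.

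With the animal as a replicate block, 8 members passed for treated against CON synovium, and 0, 1 and 0 for ACLT, RECON and REPAIR. With the knee as a block, 66 members in place of 69 differed between treated cartilage and synovium. Over all transcripts the animal block called 2376 for treated against CON in place of 5601, and 0, 268 and 0 for ACLT, RECON and REPAIR in place of 2720, 5216 and 2447. Those models with the animal as a block hold 24 knees, fewer than the models without it, so that pairing and the number of knees cannot be told apart.

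Counts over all transcripts between operated cartilages also moved. For RECON against ACLT, REPAIR against ACLT and REPAIR against RECON they were 20, 15 and 26 in edgeR, 171, 124 and 238 in DESeq2, 0, 0 and 15 in limma, 0, 0 and 0 with the groups compared alone, and 44, 27 and 21 with the RNA integrity number as a covariate. A filter on non-zero counts in at least 2 libraries left 8 for REPAIR against RECON. Under alternatives, 113 values of single transcripts kept direction and call, 23 kept direction but no longer passed and none turned. Fits in which a transcript was too low to be tested give no value here, and the contrast of the tissues is included. Of the 10 calls for treated against CON synovium, 3 held with synovium alone and 1 with the animal as a block. Of the counts, 99 stayed within 1.5 times and 13 moved by more. Depth limits members near 0, and with no gene names no total per gene could be formed.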
